A study of Mus musculus with 4 samples.

Results

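Exportins and importins are the transport receptors of the karyopherin family, and 10 of their genes were followed here in mouse heart RNA: Xpo1, Xpo4, Xpo5, Xpo6, Xpo7 and Xpot on the export side, and Kpnb1, Kpna1, Ipo7 and Tnpo1 on the import side. The genes were picked by family, with Xpo7 selected on its difference between the Rhau KO and Control arrays of this same experiment, so values of that comparison are given as a description of these arrays. Members were all probe sets that the platform annotation assigns to exactly one of the 10 symbols, which gave 36 probe sets, while the whole table has 18193 genes with a probe set of their own. One more probe set, annotated to both Xpo4 and Lats2, was left out by this rule.

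RNA was measured on 4 Affymetrix arrays, 2 labelled Rhau KO and 2 labelled Control, from hearts of adult C57BL/6J mice. The Rhau KO mice had the genotype CAAG-ERT2-Cre;Rhau F/F, in which tamoxifen activates the Cre recombinase that removes the floxed Rhau alleles, and the Control mice were Rhau F/F without Cre. Both genotypes received 5 doses of tamoxifen at 2 months of age, and hearts were taken 2 months later. The sources used here do not name the cell types in which this Cre is active. Nor do they say whether the 2 arrays of a group came from separate animals, so SDs measure only the spread between these arrays. Standard errors come from a moderated fit (limma) to the same arrays. It draws the variance of each probe set toward a trend over all probe sets, so they can differ from that spread.

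Karyopherins carry cargo through the nuclear pore and take their direction from the small GTPase Ran. In the nucleus, where Ran carries GTP, exportins bind cargo together with Ran-GTP, and importins let go of theirs. Hydrolysis of GTP in the cytoplasm releases the exported cargo. In cardiomyocytes, as in other cells, this traffic sets which transcription factors, kinases and RNAs reach the nucleus or leave it.

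The arrays did not all match their labels. Dhx36, which encodes RHAU, differed most on 1424398_at. It read 627 and 537 there in the Rhau KO-labelled arrays, against 156 and 172 in the Control-labelled ones. By the same labels it read 568 and 537, against 327 and 194, on 1424397_at. On 1437550_at it read 327 and 276, against 253 and 149. By Western blot the paper reports effective Rhau deletion in hearts of this genotype, while the order on these arrays is opposite to the labelled deletion. Every direction below is therefore by array label. In Control replicate 1, 4 of 10 cardiomyocyte markers read under 100, with Tnni3 at 10.3, and 10 skeletal muscle markers summed to 434182. Those markers summed to 625 to 1338 in the Rhau KO-labelled arrays and to 821 in Control replicate 2. Control replicate 2 stood apart in heat shock genes, 6 of which summed to 34313 to 38307 in the Rhau KO-labelled arrays, to 136020 there and to 18479 in Control replicate 1. The sum of 5 endothelial markers was 7478 to 8035 in the Rhau KO-labelled arrays, while Control replicate 1 had 2979 and Control replicate 2 had 7317. The part of these differences in the results was not tested, and results are given with and without each Control array. RNA came from whole tissue, in which fewer cells of a type and less RNA per cell cannot be told apart. On each array 51.8% to 54.0% of all readings were under 100, and a probe set with a mean under 100 is called dim below.

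Xpo7 was lower in both arrays labelled Rhau KO than in both labelled Control on its brighter probe sets. XPO7, also known as RANBP16, exports proteins through a broad kind of signal and takes part in the nuclear condensation of mouse erythroid cells. On probe set 1439411_a_at the intensity was 2036 and 2004 in the Rhau KO-labelled arrays, against 5878 and 5468 in the Control-labelled ones. On probe set 1415682_at it was 535 and 591 in the Rhau KO-labelled arrays, against 1543 and 1302 in the Control-labelled ones. The groups were separate on both, and the arrays within a group lay close together.

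The means on 1439411_a_at were 2020 ± 22.7 (SD, n = 2) for Rhau KO and 5673 ± 290 (SD, n = 2) for Control, a log2 difference of -1.49 (standard error 0.20), which is 2.81-fold lower. On 1415682_at they were 563 ± 39.2 for Rhau KO and 1422 ± 170 for Control, a log2 difference of -1.33 (standard error 0.23), or 2.52-fold lower. The log2 gap between these probe sets within an array was 1.93 and 1.76 in the Rhau KO-labelled arrays, against 1.93 and 2.07 in the Control-labelled ones. Its mean differed by -0.16 between the groups, small beside either log2 difference, so the brighter probe sets of Xpo7 agreed in direction and nearly in size. The part of the muscle and heat shock differences between the Control arrays in these values was not tested. Without Control replicate 1 the log2 differences were -1.44 and -1.21, and without Control replicate 2 they were -1.54 and -1.46.

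**Figure D1:**
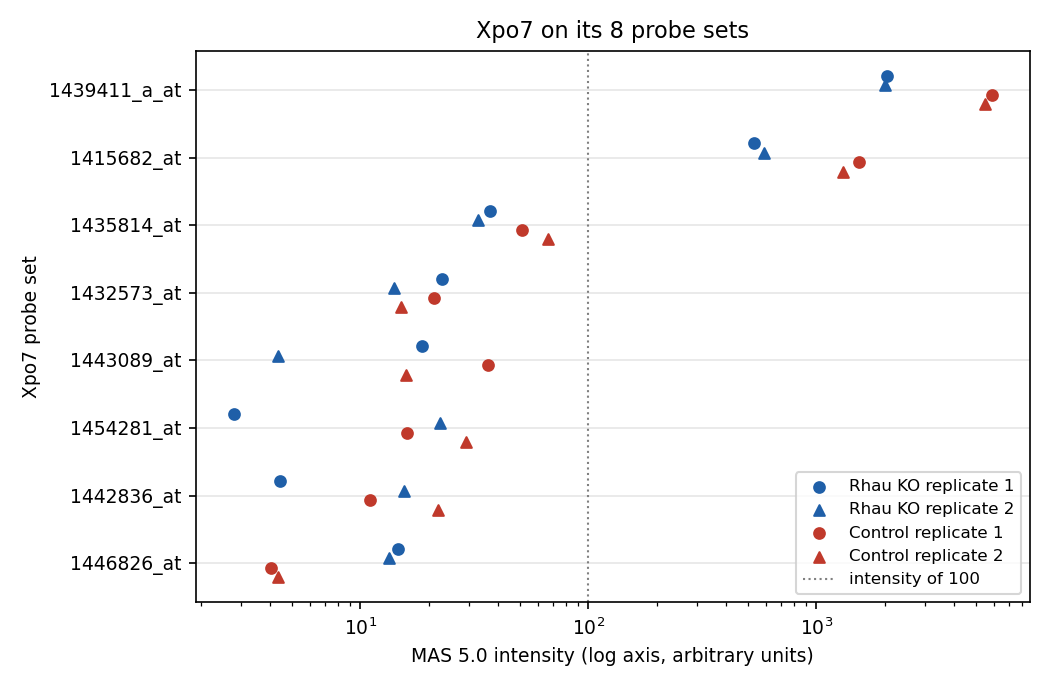
MAS 5.0 intensity (log axis, arbitrary units) of Xpo7 on each of its 8 probe sets, one symbol per array, coloured blue under the Rhau KO label and red under the Control label, with a dotted line at an intensity of 100. On the upper 2 probe sets the blue symbols sit at 2036 and 2004 and at 535 and 591, left of all red symbols, while on 1446826_at at the bottom the blue symbols lie right of the red ones.

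The other 6 probe sets of Xpo7 were dim, with readings of 2.79 to 66.4, and did not repeat this pattern as a whole. Of these, 4 had a lower mean log2 intensity in the Rhau KO-labelled arrays and 2 a higher one, with log2 differences of -1.45 to 1.72 and standard errors of 0.53 to 1.25. On 1435814_at the intensity was 37.0 and 32.8 in the Rhau KO-labelled arrays, against 51.0 and 66.4 in the Control-labelled ones, again lower without overlap.

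On 1446826_at the order was the opposite. It read 14.6 and 13.4 in the Rhau KO-labelled arrays, against 4.08 and 4.37 in the Control-labelled ones, a log2 difference of 1.72 (standard error 0.83), which was 0.34 with a pseudocount of 32. On 1432573_at the readings were 22.8 and 14.0 in the Rhau KO-labelled arrays, against 21.0 and 15.1 in the Control-labelled ones, with nearly equal means (log2 difference 0.0025, standard error 0.73). The readings of 1443089_at were 18.6 and 4.34 in the Rhau KO-labelled arrays, against 36.2 and 15.9 in the Control-labelled ones, which overlap.

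For the remaining dim probe sets, 1454281_at and 1442836_at, the direction rested on Rhau KO replicate 1. Probe set 1454281_at read 2.79 and 22.4 in the Rhau KO-labelled arrays, against 16.0 and 29.2 in the Control-labelled ones. Without Rhau KO replicate 1 its log2 difference was 0.05, against -1.45 with all arrays, and that of 1442836_at was 0.0048, against -0.90. The annotation gives the same source sequence for 1454281_at and 1432573_at, and these probe sets still read differently. Averaged over all 8 probe sets, the log2 difference of Xpo7 was -0.70.

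Among the other exportins, differences were smaller than 2-fold on every probe set that was not dim. Xpo1, also called CRM1, exports proteins with a leucine-rich signal and several RNAs. On 1418442_at it read 1427 and 1343 in the Rhau KO-labelled arrays, against 1510 and 1813 in the Control-labelled ones, a log2 difference of -0.26 (standard error 0.22). On 1418443_at it read 1549 and 1372 in the Rhau KO-labelled arrays, against 1391 and 1893 in the Control-labelled ones, which overlap. Control replicate 2, the array with high heat shock transcripts, gave the highest reading on both, and without it the log2 differences were -0.13 and 0.07. The dim probe set of Xpo1, 1448070_at, read 2.09 and 64.5 in the Rhau KO-labelled arrays, against 10.6 and 53.4 in the Control-labelled ones, and its log2 difference of -1.03 has a standard error of 1.89.

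Xpo5, the carrier of microRNA precursors, read higher under the Rhau KO label on each of its probe sets. On 1428560_at it read 428 and 375 in the Rhau KO-labelled arrays, against 301 and 333 in the Control-labelled ones. On 1451468_s_at it read 304 and 304 in the Rhau KO-labelled arrays, against 246 and 166 in the Control-labelled ones. The groups were separate on both probe sets, at log2 differences of 0.34 (standard error 0.26) and 0.59 (standard error 0.33). Of all probe sets, 21.4% were separate with Rhau KO higher. The direction held under both rescalings (quantile normalization and median centring). Leaving out 1 array cannot turn the direction where the groups are separate, so nothing is read from that.

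Xpot, which exports mature tRNA, gave no common direction. It read 1945 and 1812 in the Rhau KO-labelled arrays, against 1612 and 1681 in the Control-labelled ones, on 1428949_at. On 1428772_at it read 840 and 758 in the Rhau KO-labelled arrays, against 1027 and 903 in the Control-labelled ones. Both separated the groups, in opposite directions, with log2 differences of 0.19 (standard error 0.20) and -0.27 (standard error 0.23). On 1441682_s_at it read 836 and 901 in the Rhau KO-labelled arrays, against 926 and 956 in the Control-labelled ones. The groups were separate there too, with Rhau KO lower, at a log2 difference of -0.12 (standard error 0.21). The dim 1441681_at read 6.20 to 29.6 over the 4 arrays.

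Xpo6, the exporter of actin bound to profilin, read 729 and 691 in the Rhau KO-labelled arrays, against 690 and 634 in the Control-labelled ones, on its only probe set. Its log2 difference of 0.10 (standard error 0.23) turned to -0.02 with median centring. Xpo4, known as an exporter of the translation factor eIF5A, read 95.4 and 130 in the Rhau KO-labelled arrays, against 221 and 133 in the Control-labelled ones, on 1421054_at. Here Control replicate 1 was far above the rest, while Control replicate 2 and Rhau KO replicate 2 were nearly equal. The log2 difference of -0.62 (standard error 0.44) was -0.25 without Control replicate 1. The other probe sets of Xpo4 were dim and differed in direction, at -0.36 on 1442528_at and 1.05 on 1430797_at.

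Kpna1 and Kpnb1, which form the classical import pathway, differed mainly in Control replicate 1, in opposite directions. Kpna1, an importin alpha that binds the nuclear localization signal, was highest in Control replicate 1 on 5 of its 5 probe sets, by 1.31-fold to 1.89-fold over the geometric mean of the other arrays. Of all probe sets on the array, 28.6% were highest in Control replicate 1. On 1449505_at it read 2395 and 2184 in the Rhau KO-labelled arrays, against 4195 and 2092 in the Control-labelled ones. On 1419548_at it read 1657 and 1550 in the Rhau KO-labelled arrays, against 2442 and 1457 in the Control-labelled ones. In both cases the arrays labelled Rhau KO were above Control replicate 2 and below Control replicate 1.

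Without Control replicate 1 the log2 difference of Kpna1 was 0.13 on 1449505_at, 0.14 on 1419548_at and 0.22 on 1460260_s_at, against -0.37, -0.24 and -0.05 with all arrays. On 1449503_at, the only probe set of Kpna1 on which the groups were separate, the intensity was 311 and 283 in the Rhau KO-labelled arrays, against 436 and 337 in the Control-labelled ones. Its log2 difference was -0.37 with all arrays and -0.18 without Control replicate 1. On 1449504_at Kpna1 read 178 and 125 in the Rhau KO-labelled arrays, against 236 and 169 in the Control-labelled ones. The log2 difference there was -0.42 with all arrays and -0.18 without Control replicate 1.

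Kpnb1, the importin beta that carries the complex through the pore, was lowest in Control replicate 1 on 4 of its 4 probe sets, at 0.54 to 0.87 of the geometric mean of the other arrays. Of all probe sets, 37.5% were lowest in that array. On 1448526_at it read 1852 and 1770 in the Rhau KO-labelled arrays, against 1592 and 1891 in the Control-labelled ones. On 1416925_at it read 1215 and 1246 in the Rhau KO-labelled arrays, against 846 and 1069 in the Control-labelled ones, the only probe set of Kpnb1 on which the groups were separate. The log2 differences over the 4 probe sets were 0.06 to 0.41 with all arrays. Without Control replicate 1 that of 1416925_at was 0.20 and the other 3 were -0.05 to -0.07, and with median centring that of 1448526_at was -0.06.

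Ipo7, an importin of ribosomal proteins and histones, read 6268 and 6246 in the Rhau KO-labelled arrays, against 8683 and 7189 in the Control-labelled ones, on 1454955_at. The groups were separate there, with a log2 difference of -0.34 (standard error 0.21) that was -0.20 without Control replicate 1. On 1442511_at, Ipo7 read 240 and 116 in the Rhau KO-labelled arrays, against 172 and 155 in the Control-labelled ones, so the arrays labelled Rhau KO lay on both sides of the others, and its dim 1458165_at read 62.8 to 86.4. Tnpo1, or transportin, imports RNA-binding proteins. On 1433585_at it read 1418 and 1633 in the Rhau KO-labelled arrays, against 1562 and 1603 in the Control-labelled ones, a log2 difference of -0.06 (standard error 0.21). On 1455043_at Tnpo1 read 416 and 577 in the Rhau KO-labelled arrays, against 314 and 512 in the Control-labelled ones. The log2 difference there was 0.29 with all arrays and -0.06 without Control replicate 1. On the dim 1419864_x_at it was -0.40 (standard error 0.65). The groups overlapped on each of the 3 probe sets of Tnpo1.

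**Figure D2:**
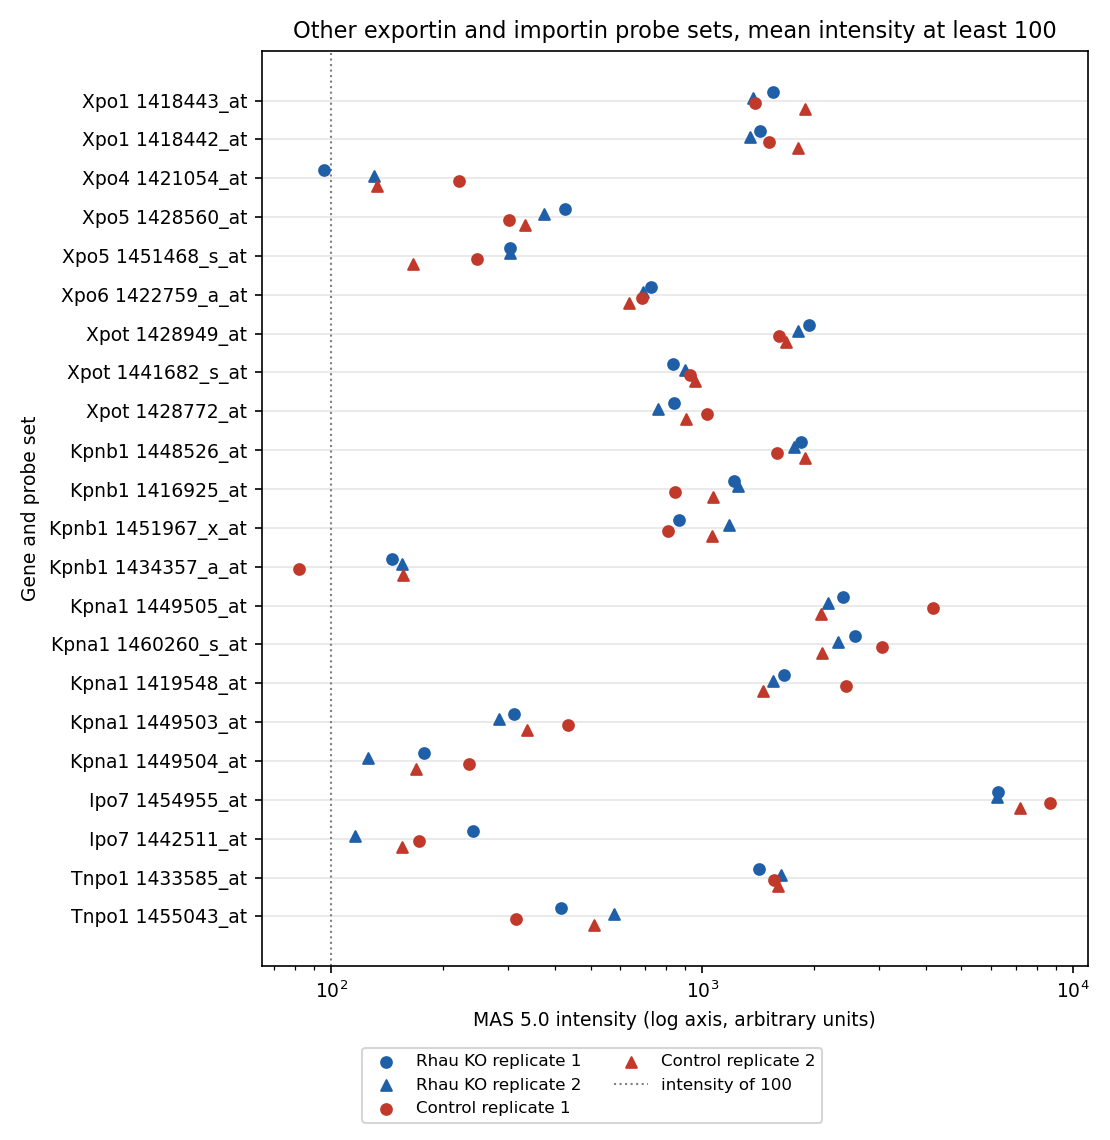
Intensity by MAS 5.0, in arbitrary units on a log axis, of the 9 members other than Xpo7 on their 22 probe sets with a mean of at least 100, one symbol per array, coloured blue under the Rhau KO label and red under the Control label, with a dotted line at 100. Kpna1 has the red circle of Control replicate 1 farthest right in each of its 5 rows, and Kpnb1 has it farthest left in each of its 4 rows.

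Over all 45037 probe sets, 19557 had a lower and 25480 a higher mean log2 intensity in the Rhau KO-labelled arrays. Of the 36 member probe sets, 22 had a lower and 14 a higher one. The groups did not overlap on 9 that were lower and 6 that were higher. These counts include Xpo7, which was chosen on this comparison. Of the 28 others, 16 were lower and 12 higher, and the groups did not overlap on 6 lower and 5 higher. Over all 45037 probe sets 14.0% did not overlap with Rhau KO lower and 21.4% with Rhau KO higher. The median log2 difference was -0.14 over the 36, -0.06 over the 28 that do not belong to Xpo7 and 0.09 over all probe sets. Median centring moved the median of all probe sets by 0.12, and turned the sign of 4 of the 36, each with a difference under that shift. Leaving out Control replicate 1 turned the sign of 9, and leaving out Control replicate 2 turned that of 5.

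The differences were also set against the thresholds of the study's heatmap, a fold of at least 2 and an unadjusted p under 0.05, here by limma on log2 intensities. The 2 brighter probe sets of Xpo7 passed both, and 0 of the other 34 did. These values chose Xpo7, so nothing is read from its passing. Over all probe sets 1.48% passed with Rhau KO lower and 1.88% with Rhau KO higher. At the fold limit, 1415682_at lay inside at 2.52-fold, and among members that were not dim the next was Xpo4 on 1421054_at at 1.54-fold. Without Rhau KO replicate 1, only 1439411_a_at passed both thresholds. With no trend in the moderation and in the methods' t-test, 3 member probe sets passed, the added one being the dim 1446826_at, which was higher. Of all probe sets, 4.93% passed with no trend and 2.32% in the methods' t-test. After Benjamini-Hochberg adjustment over all 45037 probe sets, limma called 0 of the 36 members and 0 (0%) of all probe sets. By limma 1892 had an unadjusted p under 0.05. The methods' t-test likewise called 0, and 2374 had an unadjusted p under 0.05. Both counts are near the share of 0.05 that this threshold gives where nothing differs. Without Control replicate 1, 132 of all probe sets (0.293%) passed the adjusted threshold, with 1 member among them, 1439411_a_at. Without Control replicate 2, where the only Control array is the one with skeletal muscle transcripts, 6286 of all probe sets (14.0%) passed, with 5 of the 36 member probe sets (13.9%) among them, of Xpo7, Kpna1 and Ipo7.

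**Figure D3:**
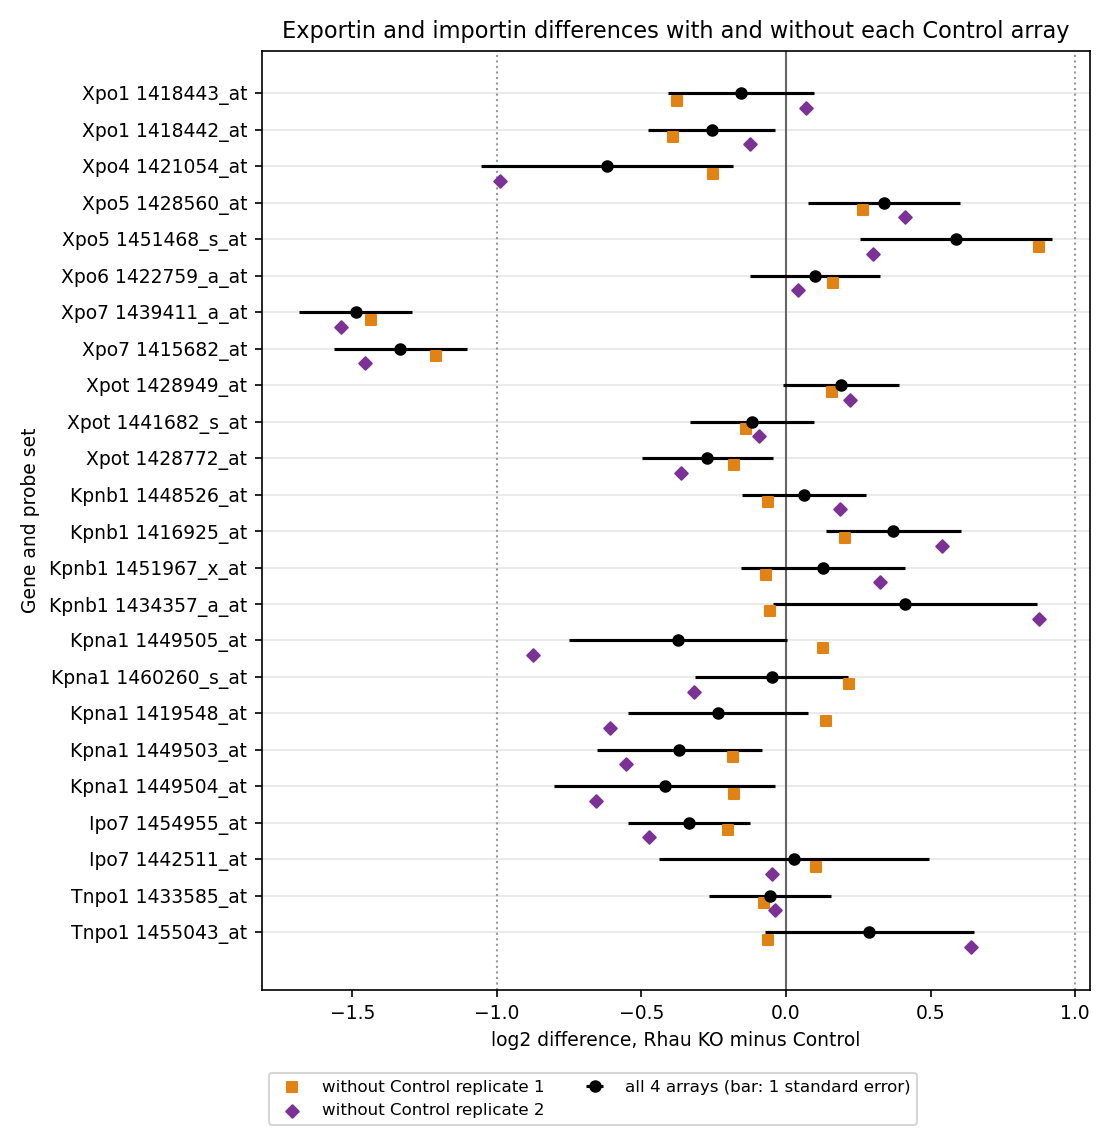
Log2 difference, Rhau KO minus Control, of the 24 exportin and importin probe sets with a mean of at least 100, with all 4 arrays in black (bars: 1 standard error), without Control replicate 1 in orange and without Control replicate 2 in purple, and dotted lines at a 2-fold difference. Xpo7 lies beyond the left line in all 3 settings, while leaving out Control replicate 1 carries the orange squares of Kpna1 and Kpnb1 toward 0 or past it.

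Beyond the 10 members, 74 other genes of nuclear transport were listed in 4 groups, of which 68 had a probe set of their own, 173 in all. The 19 other importins, exportins and adaptors had 43 probe sets, with 26 lower, 17 higher and a median log2 difference of -0.15. The 7 measured genes of the Ran cycle had 19 probe sets and a median of -0.06. The nuclear pore had 26 measured genes with 73 probe sets, 43 of them higher, and a median of 0.13. The mRNA export list had 16 genes with 38 probe sets, 19 of them higher, and a median of 0.01. Of all 45037 probe sets, 25480 were higher and 19557 lower. The list medians lie on both sides of that over all probe sets, 0.09. Those of the other importins, exportins and adaptors and of the Ran cycle moved most with the Control arrays. Those of the nuclear pore and mRNA export changed little. Without Control replicate 1 the list medians were -0.01, 0.05, 0.14 and 0.03 in the same order, against 0.03 over all probe sets. Without Control replicate 2 they were -0.30, -0.18, 0.15 and 0.01, against 0.11 over all.

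At the thresholds of the heatmap, 1.88% of all probe sets passed with Rhau KO higher and 1.48% with Rhau KO lower. Of the 173 probe sets, 1 passed with Rhau KO higher and 1 with Rhau KO lower, and 0 passed after adjustment. Kpna2, an importin alpha of dividing cells, was the higher one, at 6723 and 4943 in the Rhau KO-labelled arrays, against 1158 and 3066 in the Control-labelled ones. Its log2 difference of 1.61 (standard error 0.51) was 0.91 without Control replicate 1, where it no longer passed, and 2.32 without Control replicate 2, where it did. It did not pass without either array labelled Rhau KO, with no trend or in the methods' t-test. The lower one was a dim probe set of Ran itself, 1436490_x_at, at 31.5 and 41.8 in the Rhau KO-labelled arrays, against 130 and 139 in the Control-labelled ones. The other 5 probe sets of Ran did not follow it, with log2 differences of -0.06 to 0.27, and the brightest of them read 8921 and 8861 in the Rhau KO-labelled arrays, against 10053 and 8564 in the Control-labelled ones. The log2 difference on 1436490_x_at was -1.89, or -1.28 with a pseudocount of 32, and it is not among the brighter probe sets. Without Rhau KO replicate 1 its call was lost, and 0 of the 173 passed both thresholds. The number past them was 4 (2.31%) without Control replicate 1, where 4.64% of all probe sets did. Without Control replicate 2, 15 passed them (8.67%), where 15.6% of all did, and 19 of the 173 passed after adjustment, where 14.0% of all did.

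The groups overlapped for Cse1l and Rcc1. Cse1l, which returns importin alpha to the cytoplasm, read 2130 and 1988 in the Rhau KO-labelled arrays, against 3083 and 1855 in the Control-labelled ones, again highest in Control replicate 1. Rcc1, which loads Ran with GTP, read 178 and 219 in the Rhau KO-labelled arrays, against 185 and 233 in the Control-labelled ones. Nxf1, the main mRNA exporter, which is no karyopherin, read 905 and 837 in the Rhau KO-labelled arrays, against 738 and 770 in the Control-labelled ones on 1416791_a_at, a log2 difference of 0.21 (standard error 0.22). On 1439092_at, Nxf1 read 158 and 136 in the Rhau KO-labelled arrays, against 61.3 and 178 in the Control-labelled ones. Its log2 difference there was 0.49 with all arrays, -0.28 without Control replicate 1 and 1.26, past both thresholds, without Control replicate 2. Ranbp17, the closest relative of Xpo7, was dim on each of its 3 probe sets, at 3.31 to 78.0, and the groups overlapped on all 3. Its log2 differences were 1.18 on 1421020_at, 1.56 on 1445488_at and -0.22 on 1450094_at. They were 0.11, 3.05 and 1.11 without Control replicate 1, and without Control replicate 2 they were 2.24, 0.07 and -1.55, and the values of 3.05 and 2.24 passed both thresholds.

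**Figure D4:**
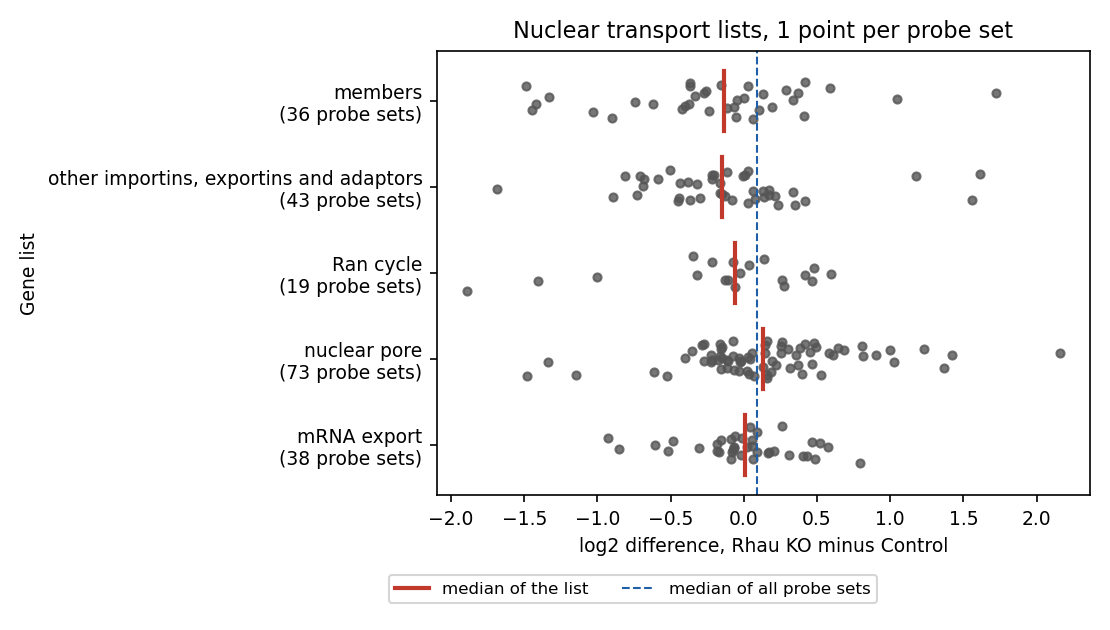
Log2 difference, Rhau KO minus Control, of each probe set of the 10 members and of the 4 other nuclear transport lists, with the median of each list in red and the median of all probe sets, 0.09, as a dashed blue line. Most points of every row lie within 0.5 of 0, and the leftmost cluster of the top row holds Xpo7 probe sets at -1.49 and -1.33.

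The genes whose pattern over the 4 arrays lay nearest to that of Xpo7 on 1439411_a_at were Set, Tra2a, Tceanc2, Phf23 and Slc1a1. Nearness was the root-mean-square distance between log2 values centred on their mean, over 19520 brighter probe sets with a single gene symbol, and 4 arrays allow no more than a description. Set, a histone chaperone, was at a distance of 0.056 log2 units, and read 4233 and 4114 in the Rhau KO-labelled arrays, against 11223 and 11569 in the Control-labelled ones. Tra2a, a splicing regulator, was at 0.057, and read 1476 and 1409 in the Rhau KO-labelled arrays, against 4073 and 3560 in the Control-labelled ones. Tceanc2, Phf23 and Slc1a1 were at 0.061, 0.084 and 0.099. The second brighter probe set of Xpo7 itself, 1415682_at, was at 0.11, close to these other genes. By label, the log2 differences of Set and Phf23 were -1.45 and -1.34. The paper counts both among the genes shared by its RNA-Seq, its microarray of tamoxifen-treated mice and a set of mRNAs with G-quadruplexes. For direction it gives higher mRNA of both, by RNA-Seq, in hearts of younger mice with Rhau deleted in cardiomyocytes. That order is opposite to the one by label here, and the reason was not tested.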

How the data were processed

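Per the labels and the study's methods, the authors hybridised labelled heart RNA to Affymetrix mouse arrays and normalized the scans by MAS 5.0. The deposited intensities are linear and have the same trimmed mean (500.0, 2% trimmed at each end) on every array. Neither detection calls nor scan dates were used, and the number of arrays limits the precision. The 64 control probe sets of 45101 were left out. Probe sets were named from the platform annotation, where 34958 carry 1 symbol, 932 several and 9211 none. For every probe set singly, the log2 difference of Rhau KO from Control was fitted in limma 3.58.1 (lmFit, then eBayes with a trend; R 4.3.3). Benjamini-Hochberg adjustment ran over all probe sets, at 0.05. Keeping probe sets apart, rather than 1 per gene, allowed those of a gene to be set side by side. With 2 arrays a group, the smallest two-sided p of an exact permutation test is 0.333.

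The members, gene lists and the rule for named genes were chosen with earlier results of these data known. That rule takes every member probe set, 6 transport genes fixed by name, list genes past both thresholds, the 5 genes nearest to Xpo7, Dhx36, and genes of the arrays that stand apart. Markers were taken on the brightest probe set of each gene. The alternatives were no trend, quantile normalization, median centring, a pseudocount of 32, brighter probe sets, the brightest or the mean of the probe sets of a gene, a replicate block, leaving out each array, and the methods' t-test. The code was tested on simulated arrays with known changes. Python 3.11.15 with pandas 2.3.3, numpy 2.4.6 and matplotlib 3.10.9 made the tables and plots. Probe sequences and protein sequences were not used here.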

Additional observations from a re-analysis of the deposited data

How the results depend on the processing

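Over all probe sets, 1514 passed a fold of 2 with an unadjusted p under 0.05, 847 higher and 667 lower in Rhau KO, and with median centring 664 were higher and 865 lower. The count was 744 with a pseudocount of 32, 434 among brighter probe sets, 599 for the brightest probe set of each gene, 639 for the mean of the probe sets of each gene, and 898 to 7016 when 1 array was left out, with 2089 without Control replicate 1 and 7016 without Control replicate 2. Adjusted calls numbered 0 to 6286 when 1 array was left out, with 132 without Control replicate 1 and 6286 without Control replicate 2, where the lone Control array is assumed to vary like the Rhau KO arrays. The log2 difference of Xpo7 on 1439411_a_at was -1.61 with median centring and -0.70 as the mean of its probe sets. Of the members, 1 passed both thresholds with the brightest probe set per gene, 0 with the mean per gene, and 1 to 2 when 1 array was left out. Of the other transport lists, 1 passed with no trend, among brighter probe sets, with the brightest probe set per gene and in the methods' t-test, and 0 to 15 when 1 array was left out. Arrays with the same replicate number did not deviate together (correlation 0.0029 over all probe sets). The Control arrays differ in muscle and heat shock transcripts, so this correlation cannot show whether the numbers pair the arrays. With the replicate block 1606 probe sets, 2 member probe sets and 2 of the other transport lists passed both thresholds. Of 393 log2 differences of the other named probe sets recomputed with all arrays, 362 stayed within the spread between replicates and 31 moved beyond it. With no trend, brighter probe sets, the brightest probe set of a gene, the replicate block or the methods' t-test, the log2 difference cannot change. Such values are among the 362, so that count does not measure how stable the differences were. With 1 of 2 replicates left out a difference moves by no more than the spread between replicates, so those values are not counted here.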
